A study of Mus musculus with 14 samples.

Results

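The ovarian transcriptome was compared between mice given dextran sulfate sodium (DSS) and control mice at day 89, the time that the series text places after a rest. The comparison holds 7 of the 14 libraries of the series: DSS replicates R29, R38, R78 and R89 (n = 4) and control replicates R123, R124 and R126 (n = 3). The libraries were chosen by the day and treatment in their labels, and no measured value entered the choice. All the mice are labelled as female, wild type and C57BL/6J, and the tissue as ovary. Mouse age, the DSS dose and schedule and any pooling were not given in the sources used here. The labels do not tie each library to its own mouse, and every p-value therefore reflects scatter among libraries, part of which may be technical. The protocol text names retina as the tissue removed. The summed FPKM of the retina markers at day 89 was 5.52 to 8.23 in DSS and 6.31 to 7.97 in control libraries. Summed granulosa markers stood at 2338 to 4236 in DSS and 2061 to 3175 in control. Summed oocyte markers stood at 128 to 332 in DSS and 81.5 to 276 in control. Single ovarian markers were low in some libraries, such as Cyp17a1 at 0.987 FPKM in control R123.

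DSS is a sulfated sugar polymer that, given in drinking water, injures the colonic lining and produces colitis. The question addressed by the late time point is whether ovarian transcripts differ from control long after the bout. The adult ovary is remodelled in every cycle: follicles grow within a basement membrane, the follicle wall is broken down at ovulation, and the corpus luteum is built with new vessels and collagen and later removed with the help of macrophages. Genes for matrix proteins, proteases, vessels, steroid synthesis and resident immune cells therefore shift with the cycle, and the cycle stage at collection is not given in the labels.

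Expression was measured as FPKM, a fragment count divided by gene length and a measure of sequencing depth. Differences are DSS minus control of log2(FPKM + 1), a scale that shrinks the differences of low genes, and were tested with limma over 18006 genes of the 56748 in the table. The residual spread came from all 14 libraries. Each of the 7 libraries rested on 15256000 to 17972000 reads. In whole-tissue libraries, fewer cells of a type and less RNA per cell cannot be told apart.

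At day 89, 1 gene passed an adjusted p of 0.05 and it was higher in DSS, 0.00555% of genes tested; none passed in the lower direction (0%). At an unadjusted p under 0.05 there were 426 higher genes (2.37%) and 398 lower genes (2.21%), together 4.58% of those tested. Separated genes, those whose DSS and control libraries do not overlap, numbered 728 higher in DSS (4.04%) and 765 lower (4.25%). The shares in this paragraph are the background for the counts of every list below. Of the genes tested 9152 stood above 0 and 8825 below it, the median difference was 0.00 and the median SE 0.20. By size, 89 genes were at least 1 log2 unit higher and 70 at least 1 lower. With limma-voom on the reads recovered from the FPKM values, 0 genes passed and 752 had an unadjusted p under 0.05.

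The gene that passed was Gm49592 (chr16:97801128-97801355, GRCm38), annotated as a processed pseudogene. It was listed at 0 FPKM in all 3 control libraries and at 1.11, 1.01, 0.805 and 0.744 in DSS replicates R29, R38, R78 and R89. These values rest on at most 4 reads in a library. The log2 difference was 0.93 (SE 0.11, limma adjusted p = 0.0174), and no fold is given, because the control libraries hold no read and the DSS libraries so few. The call is lost in voom (adjusted p = 0.702), with a pseudocount of 0.1 (0.113), with the 7 day 89 libraries alone (0.574), with the length trend removed (0.0561), and in 6 of the 7 fits that leave out 1 library; it held without R89. The gene entered the test through DSS libraries alone and processed pseudogenes resemble the transcripts they derive from, so the placing of its reads is uncertain.

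The lower genes with the smallest p, among separated and annotated genes whose mean FPKM reached 1 in either group, were Angptl4, Adamts9, Col5a1, Loxl2, Edn2, F3, Fbln2, Adamts4, Col18a1, Magi3, Rragd, Gpr153, Rnf227, Col4a1 and Bves. Predicted, unnamed and small RNA genes were left out of this naming; 5 such genes ranked ahead of the last of the 15, the first of them Mir5100 (adjusted p = 0.466). Of the 15, 7 belong to the 5 matrix lists, which hold 117 tested genes or 0.650% of those tested. That share is over all genes, whereas the 15 were drawn from 662 lower genes that met the naming rule. Among all 765 separated lower genes, 20 were matrix genes. None of the 15 higher genes chosen by the same rule, which passed over 10 such genes, does. Of the 117 matrix genes, 94 stood below 0, 20 had all DSS libraries below all control libraries (background 4.25% of all genes), and the median difference was -0.27, against 0.00 over all genes. No single matrix gene passed the adjusted threshold. The lists were chosen with earlier results of these data known, so these counts are a description and not a test.

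Collagen chains form the fibres and sheets of the extracellular matrix. Of 28 tested chains, 23 stood below 0 and 5 above, 7 had no overlap between groups, all of them lower in DSS, and 11 had an unadjusted p under 0.05, again all lower. Over all genes 4.25% were separated and lower and 2.21% had such a p and were lower. The median difference was -0.39, and -0.30 without R124. Col5a1, a chain that nucleates fibrils of collagen I (chr2:27886425-28039514, GRCm38), measured 35.7, 37.2 and 29.3 FPKM in control replicates R123, R124 and R126. In DSS replicates R29, R38, R78 and R89 it measured 23.9, 20.9, 21.4 and 23.1 FPKM. The highest DSS library was thus below the lowest control library, with a log2 difference of -0.58 (SE 0.12, limma adjusted p = 0.923). Col4a1, a main chain of basement membrane collagen, stood at 208, 241 and 200 FPKM in control and 149, 124.3, 138 and 121 in DSS (log2 difference -0.70, SE 0.19). Its partner Col4a2, transcribed from the same promoter region in the opposite direction, stood at 134, 150 and 134 against 99.8, 86.8, 94.5 and 84.4 FPKM. Col18a1, whose product releases endostatin, ranged from 26.8 to 31.0 FPKM in control and from 16.5 to 20.4 in DSS. Both basement membrane chains and Col18a1 were separated between groups in the same direction as Col5a1.

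The most abundant fibrillar chains were less clearly separated. Col1a1 and Col3a1, named after their values were seen, are main chains of collagens I and III. Col1a1 measured 255, 251 and 139 FPKM in control and 125, 182, 99.0 and 122 in DSS. Col3a1 measured 312, 225 and 140 in control and 121, 175, 112 and 109 in DSS. For both, R126 was low among the controls, R38 high among the DSS libraries, and the groups overlapped.

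**Figure D1:**
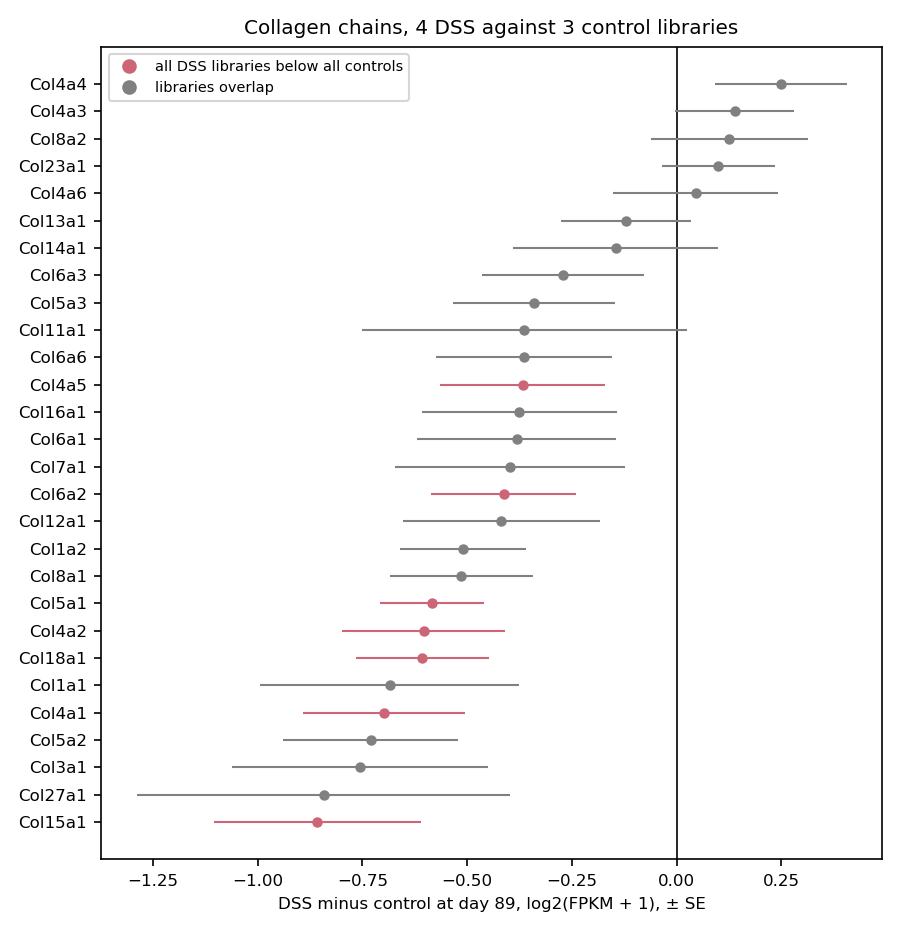
Log2 difference between DSS and control at day 89 for the 28 tested collagen chains, with the limma SE; the x axis is DSS minus control in log2(FPKM + 1). Red marks the 7 chains whose 4 DSS libraries all lie below the 3 control libraries; 23 of the chains sit to the left of 0, and no chain passed the adjusted threshold.

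Enzymes and partners that act on collagen were listed apart. Loxl2 encodes a lysyl oxidase that crosslinks collagen. It measured 31.9, 34.2 and 41.0 FPKM in control and 19.5, 16.1, 19.3 and 17.3 in DSS, a mean 0.505 times that of control (log2 difference -0.94, SE 0.21, limma adjusted p = 0.923). Lox, its founding relative, measured 17.4, 8.17 and 11.9 in control and 7.83, 7.54, 7.48 and 7.48 in DSS, so the 4 DSS libraries lay close together below a scattered control group. In the whole list of matrix crosslinking and processing, 18 of 21 genes stood below 0, 4 were fully separated and lower, and the median was -0.19, or -0.09 without R123 and -0.11 without R78.

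Proteoglycans and matricellular proteins bridge matrix and cells. Fbln2, a fibulin of elastic fibres and basement membranes, measured 6.59, 12.0 and 9.56 FPKM in control and 2.70, 3.68, 2.88 and 4.21 in DSS (log2 difference -1.23, SE 0.30). Its DSS mean was 0.359 times the control mean and the groups did not overlap. Tnc, the adhesion-modulating tenascin C, measured 65.8, 85.3 and 56.9 in control and 25.5, 63.2, 18.6 and 26.3 in DSS. Here R38 alone lay within the control range. Fn1, fibronectin, ranged from 18.9 to 23.8 in control and from 11.9 to 18.6 in DSS. Of the 30 tested genes of this list 21 stood below 0, 3 were separated and lower, and the median was -0.19 (-0.09 without R38).

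Secreted proteases of the ADAMTS family, which cut proteoglycans, were also among the lower genes. Adamts9 (chr6:92772699-92943492, GRCm38) measured 6.59, 8.10 and 6.13 FPKM in control and 3.53, 3.01, 3.92 and 3.27 in DSS. The DSS mean was 0.494 times the control mean (log2 difference -0.84, SE 0.17, limma adjusted p = 0.923), and the groups lay far apart compared with the spread inside each. Adamts4 measured 5.24, 3.71 and 3.20 in control and 1.83, 1.36, 2.38 and 2.60 in DSS. Adamts1, a protease that the preovulatory follicle makes, measured 37.1, 20.1 and 14.6 against 10.2, 11.2, 12.3 and 11.4. All 3 proteases were separated between groups. Among metalloproteinases and their inhibitors 20 of 25 genes stood below 0, 5 were separated and lower, 1 separated and higher, and the median was -0.32, or -0.11 without R123. The separated members not yet given, named after their values were seen, were Mmp11 and the inhibitor Timp3, lower, and Adamts10, higher.

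The basement membrane list, which shares Col4a1 and Col4a2 with the collagens, had 16 of 18 genes below 0, 4 separated and lower, and a median of -0.19. The separated members besides the collagens were Lamb1 and, named after its values were seen, Sparc, which binds collagen. The laminin chain Lamb1 ranged from 40.8 to 45.0 FPKM in control and from 23.1 to 37.8 in DSS. Longer genes tended to be lower in DSS (Spearman -0.26 across tested genes, which are not independent), and the median length was 7903 bases for collagen genes and 8571 for basement membrane genes, against 3422 for all tested genes. With a length trend removed from each library, the medians were -0.32 for collagens and -0.11 for basement membrane, against -0.39 and -0.19 as reported. In that setting 23 of 28 collagen chains and 12 of 18 basement membrane genes stood below 0. The part of gene length in these differences was not tested further.

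Promoter sequence is shown for Adamts9 and Col5a1, the matrix genes with the smallest p, so that the start regions of genes lower in DSS can be read. Each line gives the 250 bases before the RefSeq start site on GRCm38.p6, 5' to 3' in the direction of the gene, at chr6:92943535-92943784 on the minus strand for Adamts9 and chr2:27886175-27886424 on the plus strand for Col5a1.
Adamts9: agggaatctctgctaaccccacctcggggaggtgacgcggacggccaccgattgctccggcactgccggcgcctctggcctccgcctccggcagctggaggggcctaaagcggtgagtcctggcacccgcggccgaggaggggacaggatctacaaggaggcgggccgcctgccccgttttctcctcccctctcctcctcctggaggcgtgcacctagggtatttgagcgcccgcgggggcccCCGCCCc
Col5a1: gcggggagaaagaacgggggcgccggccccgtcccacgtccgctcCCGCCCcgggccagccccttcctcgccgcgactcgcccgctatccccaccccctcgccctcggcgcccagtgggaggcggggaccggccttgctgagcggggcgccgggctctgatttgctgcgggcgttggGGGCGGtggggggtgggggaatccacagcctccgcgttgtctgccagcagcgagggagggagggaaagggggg
Capitals mark the GC box GGGCGG on either strand, found once upstream of Adamts9 and at 2 places upstream of Col5a1. That motif occurs in 32.7% of the 32851 promoters of the RefSeq table. CCAAT, found in 33.9%, and TATAAA, found in 12.4%, have no match on either strand in either window. A match is a description of the letters and not a site.

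The first of the 15 lower genes, Angptl4, is not a matrix gene. It lies at chr17:33773750-33781830 (GRCm38) and encodes a secreted inhibitor of lipoprotein lipase that responds to fasting, hypoxia and fatty acids. It measured 55.5, 48.2 and 50.7 FPKM in control and 26.1, 34.6, 25.2 and 34.9 in DSS. Every DSS library lay below every control library, and the DSS mean was 0.587 times the control mean (log2 difference -0.76, SE 0.15, limma adjusted p = 0.754). At day 7 the difference had the opposite sign, 0.58, and the difference between both DSS effects had an unadjusted p of 1.96e-05 and an adjusted p of 0.254.

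Edn2, of the periovulatory list, and F3, of no list, were also among the 15 lower genes. Edn2, the endothelin that contracts the follicle wall at ovulation, measured 1.38, 5.44 and 2.55 FPKM in control and 1.08, 0.236, 0.461 and 0.851 in DSS (log2 difference -1.22, SE 0.28). The DSS mean was 0.211 times the control mean, yet R123 lay close to R29. F3, tissue factor, which starts the clotting cascade, ranged from 7.92 to 13.6 in control and from 4.49 to 6.25 in DSS. Of 13 tested periovulatory and cumulus genes, 10 stood below 0 and 4 were separated and lower (Edn2, Adamts1, Adamts4 and the growth factor gene Ereg), with a median of -0.34; it was -0.18 without R124 and -0.18 without R89. No member passed the adjusted threshold. Endothelial genes had 16 of 24 below 0, 2 separated and lower, 1 with an unadjusted p under 0.05, and a median of -0.14 (-0.21 without R123 and -0.09 without R126). Those counts are near the background of 4.25% and 2.21%, and the mean level of the list overlapped between groups. Both separated members are receptors of endothelium: Tie1 at 15.9, 23.95 and 19.9 against 11.9, 13.3, 14.3 and 13.9 FPKM, and Tek at 8.30 to 9.73 in control against 5.66 to 7.83 in DSS.

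Other lower genes at high rank act outside the matrix. Bves, an adhesion protein of epithelium and muscle, ranged from 3.17 to 6.77 FPKM in control and from 1.09 to 2.28 in DSS. Rragd, a GTPase that signals amino acid supply to mTORC1, ranged from 9.41 to 16.1 in control and from 3.70 to 6.46 in DSS. Magi3, a scaffold of cell junctions, ranged from 5.23 to 6.68 and from 2.65 to 4.30. Gpr153 ranged from 12.3 to 16.0 and from 7.91 to 11.2, and Rnf227 from 5.51 to 11.8 and from 2.39 to 4.85. In all 5 the DSS libraries lay wholly below the control libraries, and none passed the adjusted threshold.

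**Figure D2:**
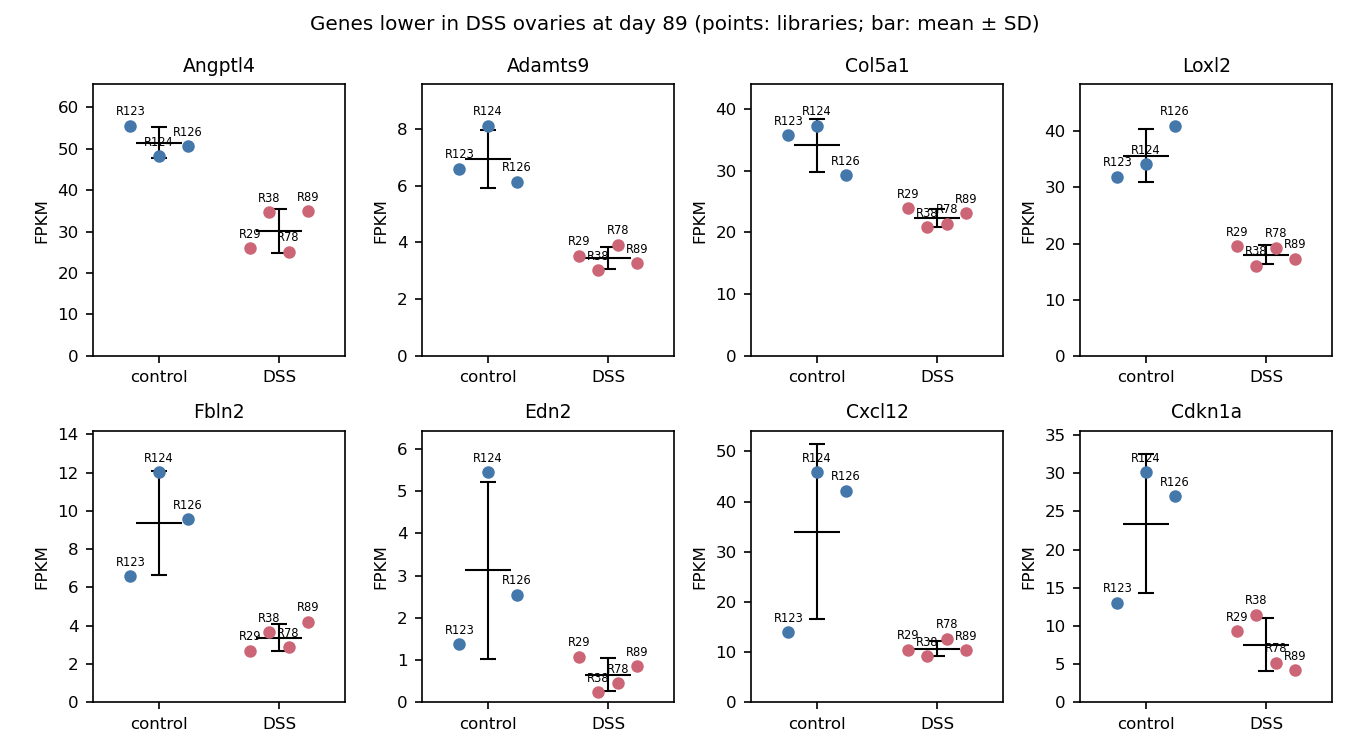
FPKM of 8 genes in each day 89 library, with the group mean and SD; the y axis of each panel starts at 0 and library names stand beside the points. In every panel the 4 DSS libraries lie below the 3 control libraries; for Edn2, Cxcl12 and Cdkn1a the control replicate R123 is closest to them.

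An immunoglobulin gene, Igkc, had the smallest p of the 15 higher genes, and Ighm was also among them. Igkc (chr6:70726435-70726966, GRCm38), the constant region of the kappa light chain and hence a product of B and plasma cells, measured 2.26, 5.09 and 4.02 FPKM in control. In DSS replicates R29, R38, R78 and R89 it measured 18.0, 35, 18.4 and 12.3 FPKM. Every DSS library exceeded every control library, the ratio of means was 5.53, and the log2 difference was 2.15 (SE 0.32, limma adjusted p = 0.116). Ighm, the heavy chain of IgM, measured 3.74, 2.81 and 2.69 in control and 28.7, 11.7, 4.90 and 4.86 in DSS (log2 difference 1.40, SE 0.43). R29 was by far the highest and the lowest 2 DSS libraries were near the control range.

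The heavy chain classes differed among the DSS libraries. Ighg3, of the IgG3 class, measured 7.19 FPKM in R29, 1.76 in R38, 1.12 in R78 and 0.203 in R89, against 0.0449 to 0.267 in control. Igha, of the IgA class typical of gut plasma cells, stood the other way: 0.380 in R29 and 6.38, 5.41 and 3.84 in R38, R78 and R89, against 0.492, 1.75 and 0.503 in control. R29 was thus highest in IgM and IgG3 and lowest in IgA. Summed over all annotated immunoglobulin gene segments, the level was 13.0, 20.3 and 12.5 FPKM in control and 75.8, 71.3, 47.4 and 37.1 in DSS, with no overlap (exact permutation test, two-sided p = 0.0571, the smallest that 4 against 3 allows; 0.103 adjusted over 9 library values). Variable segments, which differ between B cell clones, held 23, 9 and 13 reads in control and 59, 72, 80 and 66 in DSS. The reads fell on 13, 5 and 7 segments in control and on 16, 29, 36 and 27 in DSS, so they were spread over more segments in R38, R78 and R89 than in R29. Similar segments share reads, so the split between them is uncertain.

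**Figure D3:**
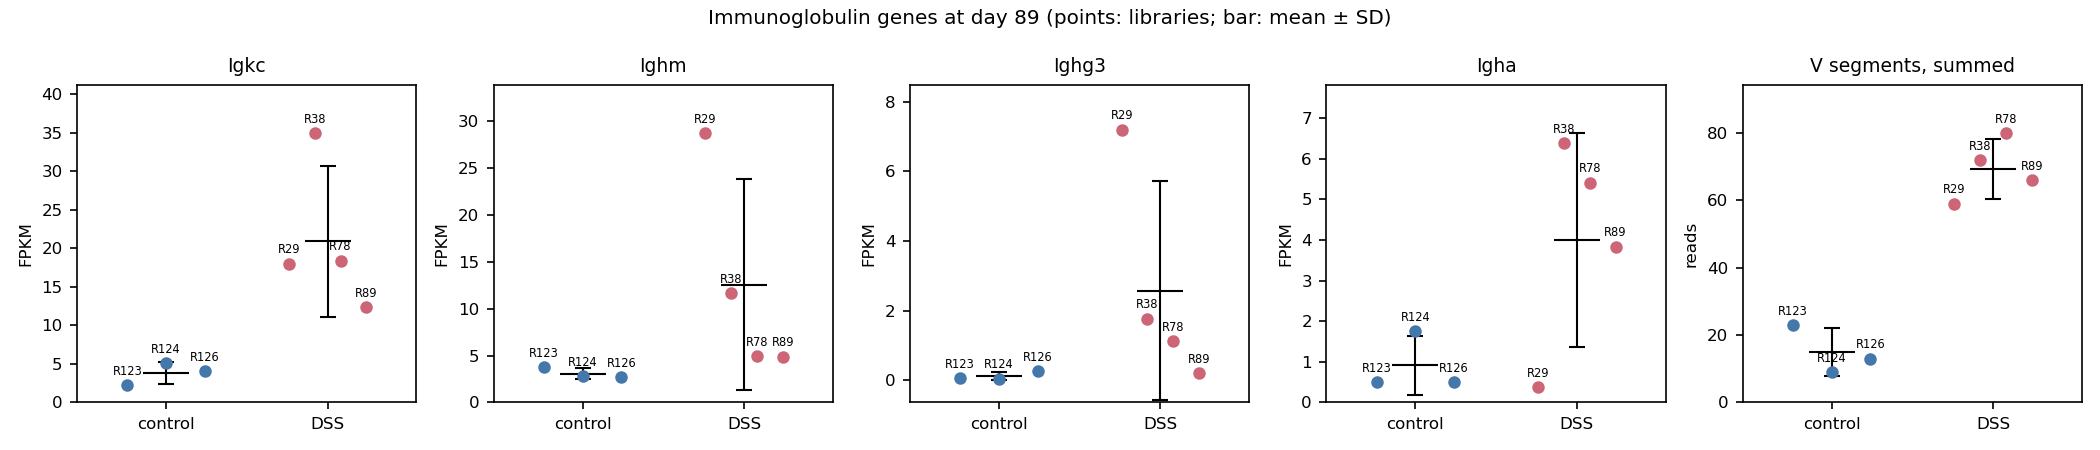
FPKM of 4 immunoglobulin constant region genes and the reads summed over variable segments, by day 89 library, with the group mean and SD. Igkc and the variable segments lie above all 3 control libraries in each DSS library, while Ighg3 is highest in R29 and Igha is high in R38, R78 and R89 and low in R29.

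Over the list of B and plasma cells, 13 of 15 tested genes stood above 0, 3 were separated and higher, 5 had an unadjusted p under 0.05, and the median was 0.45. The size of that median follows the treatment of low values: it was 0.21 over all 22 members without a filter, 0.68 with at least 3 libraries at FPKM 1, 1.24 with a pseudocount of 0.1 and 1.38 with voom. The third separated member was Cd79b, a part of the B cell receptor, at 0.810 to 1.37 FPKM in control and 8.46, 2.41, 1.45 and 1.42 in DSS. The background shares for all genes are 4.04% separated and higher and 2.37% with such a p. For T and NK cells 8 of 12 stood above 0, 2 were separated and higher, and the median was 0.14 (0.08 without R29, 0.21 without R123, 0.23 without R78 and -0.05 with sample weights); both were subunits of the T cell receptor complex, Cd3d and Cd3g. The day 7 median of B and plasma cells was 0.39.

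Macrophage genes had their highest levels in R29 and R38. Cd68, a lysosomal membrane protein of macrophages, measured 35.6, 14.7 and 16.4 FPKM in control and 56.0, 76.0, 33.0 and 34.1 in DSS. C1qb and C1qc, chains of the complement starter C1q that tissue macrophages make, behaved alike. C1qb measured 86.4, 72.0 and 47.8 in control and 204, 176, 84.6 and 78.2 in DSS, and C1qc 43.5, 34.5 and 23.2 against 103, 82.05, 41.7 and 39.1. In all 3 genes R29 and R38 stood above the others and R78 and R89 lay beside control R123. The Fc receptor Fcgr1 had the same order at 1.56 to 3.06 in control and 6.29, 6.01, 3.19 and 2.10 in DSS. Of 20 tested macrophage genes 18 stood above 0, none was separated, 6 had an unadjusted p under 0.05, all higher, and the median was 0.39, or 0.16 without control R126. The summed FPKM of the list was 425 to 797 in control and 650 to 1273 in DSS.

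Genes that macrophages share with other cells had medians above 0, and the order of the libraries differed between lists. All 11 tested genes of antigen presentation by MHC class II stood above 0, with a median of 0.32 (0.14 without R126 and 0.19 without R38) and 1 separated, H2-Oa, at 0.130 to 0.544 FPKM in control and 0.643 to 0.899 in DSS. H2-DMb1 measured 7.31, 4.16 and 4.50 in control and 11.5, 9.85, 5.97 and 6.39 in DSS. Complement genes stood above 0 in 14 of 17, with a median of 0.27 (0.17 without R126, 0.17 without R38 and 0.48 without R123), and the mean level of control R123 lay above those of R78 and R89. Lipid-laden and multinucleate macrophages, a cell state described in ageing ovaries, had 13 of 18 above 0 and a median of 0.07, which went from -0.13 without R126 to 0.24 without R123. In the mean level of that list control R123 lay above R29, R78 and R89. Their separated member was Fabp5, a fatty acid carrier, at 12.5, 13.2 and 14.7 in control and 15.4, 26.3, 17.8 and 22.1 in DSS, lowest of the DSS libraries in R29. Acp5, an acid phosphatase of multinucleate macrophages, stood at 30.0 in R29 and 11.0, 4.61 and 5.35 in the other DSS libraries, against 3.28 to 6.57.

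Interferon response genes had 25 of 29 above 0 and a median of 0.27. Of the 29, 1 was separated and higher, close to the share of 4.04% over all genes. Without R126 the median was 0.07 and without R38 0.14. Mx1, an antiviral GTPase, measured 0.211, 0.218 and 0.127 FPKM in control and 0.922, 0.699, 0.563 and 0.235 in DSS. Ifit3 measured 4.38, 3.78 and 3.01 against 8.25, 7.77, 5.12 and 3.44, and Igtp 3.95 to 6.54 against 5.42 to 8.12. R29 and R38 again stood highest for Mx1 and Ifit3. Ifi207, of the same broad class and with close relatives in its gene cluster, ranked among the 15 higher genes at 2.19, 1.07 and 1.53 in control and 5.30, 4.50, 2.99 and 2.58 in DSS. At day 7 the median of the interferon list was -0.39, so its sign differed between the times.

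Chemokine genes went both ways. Ccl4, a chemoattractant for T cells and monocytes, measured 18.1 FPKM in R29 and 1.74, 1.11 and 1.20 in the other DSS libraries, against 0.248 to 1.28 in control. Cxcl13, which draws B cells into follicles of lymphoid tissue, measured 6.78 in R29 and 0.600, 0.266 and 0.541 in the other DSS libraries, against 0.0475 to 0.212. Both values in R29 stand far above every other library. Cxcl12, a chemokine of stromal cells, was lower in DSS at 10.5, 9.17, 12.7 and 10.3, against 13.9, 45.8 and 42.1 (log2 difference -1.42, SE 0.44); control R123 was close to the DSS libraries. The list as a whole had 16 of 23 above 0 and a median of 0.19 (0.09 without R29, 0.09 without R38 and 0.11 without R124).

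Neutrophil and acute phase genes, which mark active inflammation, had medians near or below 0. The neutrophil list had 4 of 7 above 0 and a median of 0.03, or -0.14 without R78, against 0.99 at day 7. S100a8, a calprotectin subunit named after its values were seen, measured 0.163 to 0.441 FPKM in all 7 libraries, with a day 89 difference of -0.09 and a day 7 difference of 3.03 (difference between the effects: limma adjusted p = 0.419). Csf3r, the receptor for granulocyte colony-stimulating factor, was 6.78 in R29 and 3.14, 1.53 and 1.00 in the others, against 0.846 to 1.48. Of 14 acute phase and antimicrobial genes 12 stood below 0, with a median of -0.12 (-0.06 without R89, -0.21 without R126, -0.23 without R38 and -0.26 without R123), against 0.42 at day 7; 1 was separated in each direction, Steap4 lower and Pglyrp1 higher. Steap4, a metalloreductase that inflammation induces, ranged from 8.08 to 10.1 in control and from 5.12 to 8.05 in DSS.

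**Figure D4:**
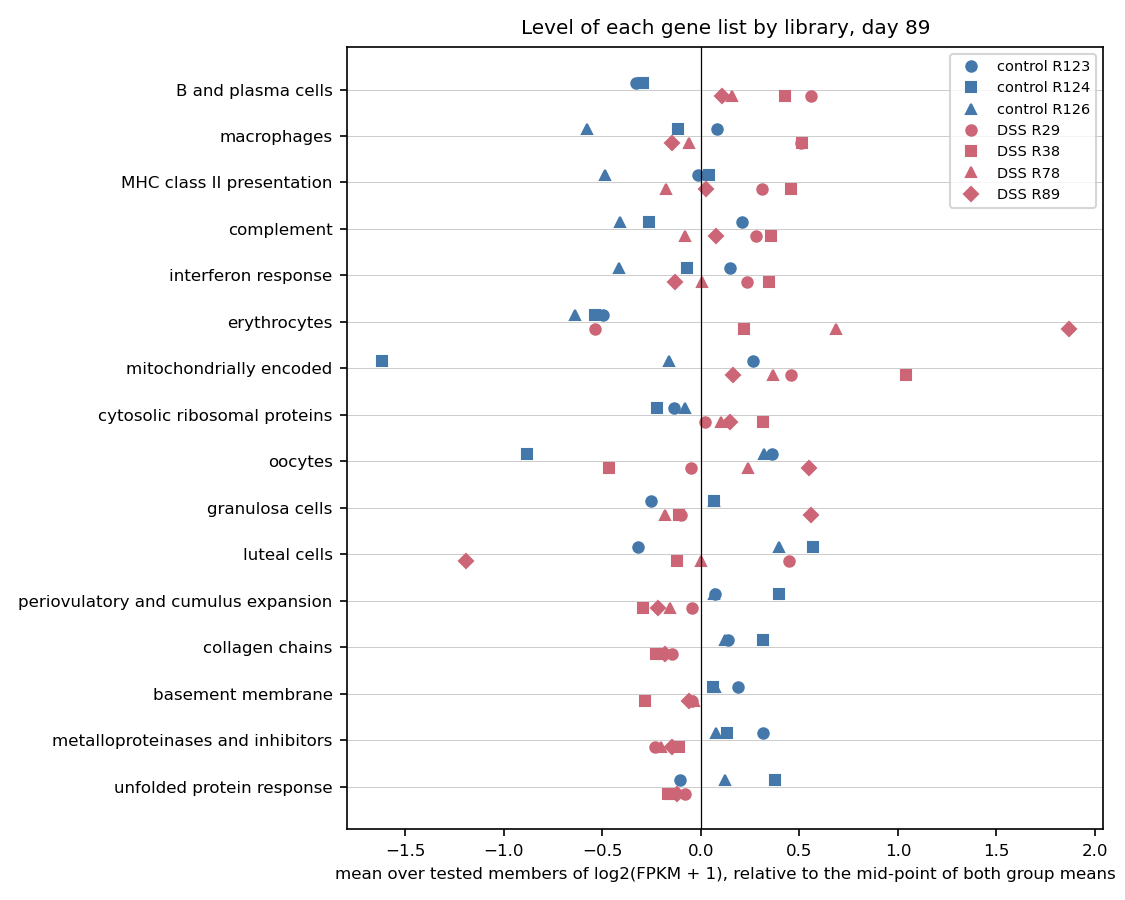
Level of 16 gene lists in each day 89 library, as the mean of log2(FPKM + 1) over the tested members relative to the mid-point of both group means. The collagen, basement membrane, metalloproteinase and periovulatory lists show all DSS libraries left of all controls; macrophage and interferon levels are highest in R29 and R38; mitochondrial and oocyte levels are lowest in control R124, and globin genes are highest in R89.

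The remaining higher genes of the 15 have varied functions. Bckdhb, a subunit of the enzyme that breaks down branched-chain amino acids, measured 7.05, 6.72 and 8.56 FPKM in control and 9.77, 12.1, 10.9 and 10.4 in DSS (log2 difference 0.49, SE 0.12). Klf15, a glucocorticoid-responsive transcription factor that controls amino acid breakdown, measured 4.93, 3.82 and 4.99 against 5.57, 7.37, 7.68 and 9.18. Echdc3 ranged from 6.22 to 7.32 in control and from 8.48 to 10.7 in DSS, and the mitochondrial alcohol dehydrogenase Adhfe1 from 1.98 to 3.79 and from 4.13 to 5.51. These 4 were separated between groups, and all had a limma adjusted p of 0.923. Nop10, of the H/ACA ribonucleoproteins, stood at 36.9, 13.9 and 30.9 in control and 54.7, 52.6, 49.2 and 55.6 in DSS. Pop7, of RNase P, ranged from 8.25 to 10.7 and from 11.9 to 14.1, and the mitochondrial ribosomal protein Mrpl57 from 9.24 to 11.3 and from 13.8 to 21. Fkbp6, an immunophilin of germ cells, ranged from 0.933 to 1.25 and from 1.78 to 2.42. The cadherin Cdhr5 ranged from 0.474 to 1.20 and from 1.41 to 2.69. Ict1os, an antisense transcript, ranged from 0.232 to 0.536 and from 0.860 to 1.53, and Hmga1b, a near copy of another gene, from 0.694 to 0.788 and from 0.954 to 1.84. The last 2 are uncertain, because strand use and the handling of reads that fit several places were not given in the sources used here.

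Follicle and steroid genes had few separated members: Kitl and Hsd17b4, lower, and Foxl2, higher, among those described here. Oocyte genes had 21 of 28 above 0, none separated and a median of 0.16. The sign was not stable: the median was -0.27 without control R124, -0.02 without DSS R89 and -0.03 with sample weights, and 0.43 without R123. Zp3, of the egg coat, measured 35.3, 9.55 and 34.3 FPKM in control and 24.3, 14.2, 36.1 and 44.6 in DSS, and the oocyte growth factor Gdf9 27.3, 7.30 and 27.0 against 20.2, 13.9, 27.1 and 40.3. The Zp3 difference was 0.25, and -0.33 without R124. In both genes R124 was the lowest library of all and R38 the lowest DSS library. The primordial follicle list had 10 of 18 above 0, 1 separated and lower, and a median of 0.02 (-0.16 without R124 and -0.03 without R89). Its members include Foxo3, which holds primordial follicles dormant, at 16.2 to 16.6 in control and 12.5, 9.13, 13.5 and 17.6 in DSS. Kitl, the granulosa signal to the oocyte, was the separated member at 27.3, 23.97 and 20.7 against 16.7, 17.3, 18.6 and 20.6, with R126 and R89 almost touching.

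Granulosa genes had 11 of 20 above 0 and a median of 0.02, between -0.07 without R89 and 0.22 without R124. Fshr, the receptor for follicle-stimulating hormone, measured 4.86, 3.68 and 10.04 FPKM in control and 11.8, 7.57, 12.7 and 21 in DSS, and Foxl2, which maintains granulosa identity, 74.9 to 79.9 against 82.6 to 103. Foxl2 was separated and Fshr was not. Steroidogenic enzymes had 12 of 17 below 0, 1 separated and lower, Hsd17b4, and a median of -0.08, between -0.23 without R38 and 0.01 without R29. Star, which brings cholesterol into mitochondria for steroid synthesis, measured 294, 229 and 195 in control and 269, 316, 244 and 64.8 in DSS. Cyp17a1, the theca enzyme of androgen synthesis, measured 0.987, 32.4 and 16.8 against 22.5, 7.80, 32.6 and 105. The groups overlapped for both genes, and the Star difference of -0.30 had the opposite sign without R89 (0.22).

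Luteal genes had 11 of 15 below 0, none separated, and a median of -0.30. Without R89 the luteal median was -0.07 with 9 below 0, with sample weights -0.06, and without R29 -0.46. Akr1c18, the enzyme that clears progesterone as the corpus luteum regresses, measured 66.1, 201 and 79.0 FPKM in control and 156, 785, 6.09 and 5.91 in DSS. Ptgfr, the prostaglandin F receptor through which luteal regression is signalled, measured 25.4, 140 and 85.2 against 50.1, 38.2, 42.3 and 14.2. Across whole lists, R89 had the lowest luteal and the highest granulosa level of the 7 libraries. Theca and interstitial genes had 10 of 17 above 0 and a median of 0.10 (0.02 without R126 and 0.02 without R29), with Gli1, a hedgehog target, at 3.31 to 5.97 in control and 5.55 to 11.6 in DSS, and the epoxide hydrolase Ephx1 at 52.2 to 75.2 and 68.7 to 137. Cholesterol genes had 13 of 25 above 0 (median 0.02), hormone receptors 6 of 15 (-0.08) and the insulin-like growth factor system 5 of 15 (-0.06). In these 3 lists 1 member was separated, Stc2 of the growth factor list, higher in DSS.

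Genes of cell stress were examined in several lists, and none of their members passed the adjusted threshold. Over all genes 4.25% were separated and lower, and 2.21% were lower with an unadjusted p under 0.05. Cdkn1a, the cell cycle inhibitor p21 and a target of p53, measured 13.0, 30.1 and 27.0 FPKM in control and 9.33, 11.5, 5.22 and 4.22 in DSS (log2 difference -1.52, SE 0.51, limma adjusted p = 0.923). The p53 and apoptosis list had 19 of 25 below 0, 3 separated and lower, and a median of -0.11. Cdkn1a and Apaf1, of the apoptosome, were among the separated members. Chaperones and enzymes of the unfolded protein response, which serve protein folding in the endoplasmic reticulum, had 19 of 25 below 0, 4 separated and lower, 5 with an unadjusted p under 0.05, and a median of -0.24. Hsp90b1, its endoplasmic chaperone, measured 186, 310 and 251 in control and 159, 141, 164 and 165 in DSS. Pdia4, which forms disulfide bonds, measured 178, 379 and 259 against 143, 206, 124.05 and 132, and Creld2 45.7, 103 and 74.6 against 39.7, 48.6, 39.3 and 43.9. R124 was the highest library for all 3; the median of the list was -0.16 without it and -0.43 without R123, and the mean level of R123 lay within the DSS range. The separated members were Hsp90b1 and, named after their values were seen, Hspa5, Pdia6 and Dnajc3.

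Proliferation genes had 13 above and 13 below 0 and a median of -0.01, a balance that moved with single libraries: 4 above and 22 below without R124 (-0.14), 20 above and 6 below without R123 (0.07), 18 above and 8 below without R38 (0.10) and 8 above and 18 below without R89 (-0.08). The mitotic kinase Plk1 measured 13.0, 5.70 and 10.7 FPKM in control and 12.8 to 16.7 in DSS. Antioxidant genes had 17 of 26 above 0 and a median of 0.04, among them the glutathione transferase Gstm1 at 290, 183 and 271 against 300, 490, 337 and 575, which was separated and higher; Srxn1 was separated and lower. Immediate-early genes had 16 of 21 below 0, with 2 separated and lower (Ier3 and Nr4a2), and a median of -0.18, but 0.05 without R124, -0.09 without R89, -0.31 without R29 and -0.43 without R123. Clock genes had 11 of 18 above 0 and a median of 0.08: Ciart was separated and higher at 0.846 to 1.07 in control and 1.62 to 2.40 in DSS, and Nfil3 separated and lower at 7.02 to 7.85 and 4.42 to 6.62. Over all genes 4.04% were separated and higher and 4.25% separated and lower. The antioxidant and clock counts of separated members were near those shares. Smooth muscle genes had 10 of 18 below 0 (median -0.06) and surface epithelium 11 of 17 (-0.15, but -0.02 without R29, -0.03 without R124, -0.07 without R38, -0.10 without R123 and -0.29 without R89), with no separated member in either. Cilia and oviduct genes had 8 of 9 above 0 (0.26, and 0.10 to 0.26 with 1 library left out) and adipocyte genes 5 of 9 (0.02).

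Transcripts of the mitochondrial genome, the ribosome and red cells had medians above 0, and 1 library weighed on several of these values. Of 13 mitochondrially encoded genes 12 stood above 0 and 6 were separated and higher, with a median of 1.11, or 0.45 without R124. None of them had an unadjusted p under 0.05, and the mean level of the list overlapped between groups. Over all genes 4.04% were separated and higher and 4.25% separated and lower. mt-Cytb, a subunit of complex III, measured 3340, 538 and 2611 FPKM in control and 3387, 6366, 3755 and 3687 in DSS. R124 was far below the other controls and R38 far above the other DSS libraries, while R123 and R29 nearly met. The mitochondrial share of reads was 2.25%, 0.479% and 1.84% in control and 2.43%, 3.66%, 2.57% and 2.37% in DSS (exact permutation test, two-sided p = 0.0571). Nuclear genes of oxidative phosphorylation had 24 of 36 above 0, 4 separated and higher, 2 separated and lower, and a median of 0.06. Ndufa6 and Cox5b were 2 of the higher ones; the rest, named after their values were seen, were Ndufa1 and Cox6c, higher, and Atp5a1 and Sdha, lower.

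Cytosolic ribosomal protein genes had 29 of 35 above 0 and 16 separated and higher, with a median of 0.20, against a background of 4.04% separated. Rps28 measured 62.4, 60.7 and 67.4 FPKM in control and 94.1, 116, 96.1 and 98.6 in DSS, Rps29 112 to 123.2 and 165 to 237, and Rps16 244 to 425 and 496 to 657. All 3 were separated, and R38 was highest in each. These genes are short, and a measure of length bias, the mean log2 level of short genes minus that of long genes relative to the mid-point of the groups, was -0.11, -0.07 and -0.07 in control and 0.03, 0.38, -0.04 and -0.03 in DSS, with R38 apart. The ribosomal median was 0.15 with the length trend removed and 0.09 with quantile normalization, where 23 of 35 stood above 0. Without R124 and R38 together, an alternative chosen after seeing the data, it was 0.16, that of the mitochondrial genes 0.29, that of the collagens -0.33 and that of B and plasma cells 0.44. The part of RNA quality in these values was not tested.

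Globin genes, which mark red cells, followed one another across the DSS libraries. Hba-a1, an alpha globin with the near-identical copy Hba-a2, measured 18.6, 13.5 and 17.8 FPKM in control and 18.3, 73.9, 82.1 and 308 in DSS, and Hbb-bs 20.2, 26.1 and 21.5 against 20.9, 51.1, 95.1 and 293. R29 was at the control level and R89 the highest. Hba-a2, 1 of the 15 higher genes, measured 1.23, 0.930 and 1.46 against 2.47, 4.82, 5.51 and 20.4. Summed globin FPKM was 42.4 to 44.2 in control and 43.5, 136, 191 and 650 in DSS. The median of the red cell list was 1.31, or 0.70 without R89 and 0.50 without a filter. By globin the DSS libraries rose in the order R29, R38, R78, R89. Igkc was highest in R38 and lowest in R89, and Igha was highest in R38 and lowest in R29. The part of retained blood in the immune cell values was not tested.

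Against day 7, the late comparison was tested through the difference of both DSS effects, each against its own controls. No gene passed the adjusted threshold for that difference (0%), by limma; 1521 genes (8.45%) had an unadjusted p under 0.05, and limma-voom called 0. Of 40 lists, 15 had medians of opposite sign at the times, and 11 of these kept their day 89 sign with 1 library left out. The day 89 medians of the proliferation, cholesterol, clock and nuclear oxidative phosphorylation lists took both signs. All 5 matrix lists stood above 0 at day 7 and below it at day 89: collagens (0.19 and -0.39), metalloproteinases (0.10 and -0.32), basement membrane (0.17 and -0.19), crosslinking (0.17 and -0.19) and proteoglycans (0.20 and -0.19). So did acute phase genes (0.42 and -0.12), the unfolded protein response (0.07 and -0.24), the insulin-like growth factor system (0.18 and -0.06) and proliferation (0.34 and -0.01). The opposite order held for mitochondrially encoded genes (-0.26 and 1.11), interferon genes (-0.39 and 0.27), ribosomal proteins (-0.17 and 0.20), cholesterol genes (-0.56 and 0.02), clock genes (-0.09 and 0.08) and nuclear oxidative phosphorylation (-0.13 and 0.06). The other 25 lists had medians of the same sign, among them macrophages (0.53 and 0.39), B and plasma cells (0.39 and 0.45), complement (0.47 and 0.27), MHC class II (0.30 and 0.32), red cells (1.49 and 1.31) and luteal cells (-0.86 and -0.30, the latter -0.07 without R89). Col4a1 had a day 7 difference of 0.39 and a day 89 difference of -0.70, and the difference between them had an adjusted p of 0.422. Whether list medians differ between the times was not tested. At day 7 the mitochondrial share of reads was uneven, at 9.96%, 1.66% and 12.2% in control replicates 10, 51 and 53. In DSS replicates 75, 80, 81 and 82 it was 14.2%, 3.48%, 4.04% and 3.88%. No fit left out a day 7 library, so the dependence of the day 7 medians on single libraries was not examined.

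**Figure D5:**
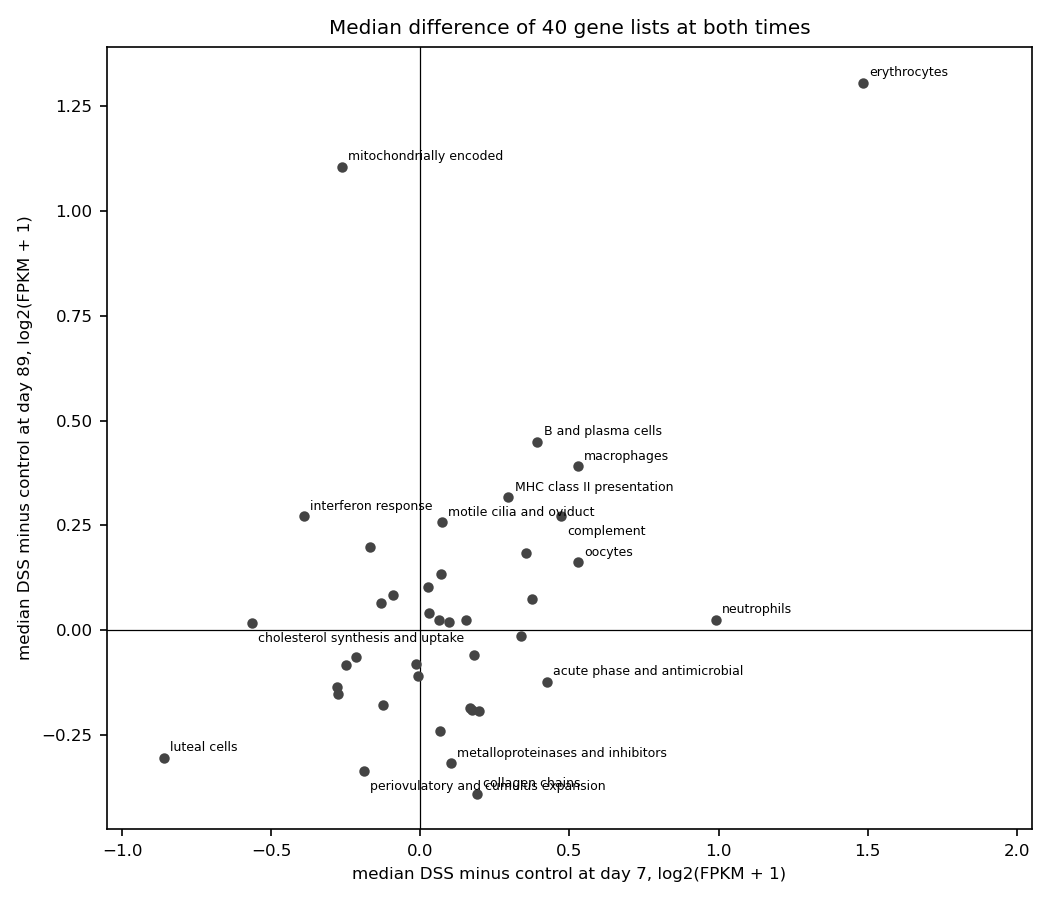
Median log2 difference between DSS and control of 40 gene lists, at day 7 on the x axis and day 89 on the y axis, both in log2(FPKM + 1); each point is 1 list and the far ones carry names. Red cells are high at both times, neutrophils stand at 0.99 and 0.03, mitochondrial genes at -0.26 and 1.11, and collagens lie below 0 at day 89 (0.19 and -0.39).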

How the data were processed

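Ovary libraries were labelled by treatment and day, 3 or 4 per group. The authors deposited FPKM values for 56748 genes with gene lengths; libraries were made with a TruSeq kit from total RNA per the labels' protocols, and HISAT2 2.0.5 and GRCm38 were used per the submitters' processing notes. Counting software, use of strand and handling of reads that map to several places were not given in the sources used here. Deposited FPKM times length gave whole reads (100% of values below 300 reads within 0.01 of a whole read), 15256000 to 17972000 per day 89 library. The depth that the day 89 values imply was 0.995 (R124) to 1.055 (R38) times those reads, so they were not scaled by these reads alone.

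Genes with FPKM of 0.5 or more in 3 of 14 libraries were tested as log2(FPKM + 1) with limma 3.58.1 in R 4.3.3 (limma-trend, 4 group means, Benjamini-Hochberg, threshold 0.05), after tests on simulated data. Single library values had exact permutation tests (scipy 1.17.1). Separated means that no DSS library overlaps a control library. Named genes are those past the threshold, 15 per direction by p among separated, annotated genes with a mean FPKM of 1, 3 per list of 41 lists by p, and cell type markers at that level. The comparison, lists and rules were chosen with earlier results of these data known. Positions are from GENCODE M21 on GRCm38, by gene ID. Alternatives were other pseudocounts, filters, scalings, library sets, voom, sample weights and length-trend removal.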

Additional observations from a re-analysis of the deposited data

Results flagged for a closer look

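For independent, normally distributed values about 1 in 20 sets would exceed the 95% limit of Dixon's ratio. The sets here share libraries and include genes named after their values were seen, so that rate does not apply to them. Of 119 sets of 4 DSS values, 13 had 1 library whose gap to the other 3 exceeded that limit. Most are in R38: Ict1os at 1.53 FPKM (the others 0.860 to 0.964), mt-Cytb at 6366 (3387 to 3755), Ndufa1 at 173 (79.8 to 88.8), Cox6c at 71.9 (45.6 to 48.4), Stc2 at 5.29 (3.57 to 3.81) and, below the rest, Atp5a1 at 204 (265 to 273). The mitochondrial share of reads in R38 was 3.66% (2.37% to 2.57% in the others), and its measure of short against long genes was 0.38 (-0.04 to 0.03). R29 stood apart for Cd79b at 8.46 FPKM (1.42 to 2.41), Ccl4 at 18.1 (1.11 to 1.74), Cxcl13 at 6.78 (0.266 to 0.600) and Lox at 7.83, where the others lay close together (7.48 to 7.54). R89 stood apart for Hba-a2 at 20.4 (2.47 to 5.51). The reasons were not tested. No gene passed the adjusted threshold of limma for a difference between the DSS effects at day 7 and day 89.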

How the results depend on the processing

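The count of genes past the threshold at day 89, 1 as reported, was 0 with log2(FPKM + 0.1), with at least 3 libraries at FPKM 1, with the 7 day 89 libraries alone, with voom and with the length trend removed, 5 without a filter, and 92 (33 higher) with sample weights. Leaving out 1 library gave 0 to 2, and leaving out R124 and R38 together, chosen after seeing the data, 0. Genes at an unadjusted p under 0.05, 824 as reported, numbered 1438 without a filter, 2940 with sample weights, 353 to 1136 with 1 library left out (353 without R124) and 315 without R124 and R38. Genes whose DSS effect differed between the days, 0 as reported, numbered 2 without a filter and 4226 with sample weights; this difference has no value with day 89 libraries alone. The sample weights ranged from 0.247 for R38 to 5.21 for R126 at day 89, and the cause of the larger counts was not tested. Under them 19 of the 110 genes followed passed, among them Igkc (adjusted p = 0.00170) and Angptl4 (0.00429); over all 17 alternatives Igkc ranged from 0.00170 to 0.785 and Angptl4 from 0.00429 to 1. Signs differed for 3 genes when libraries were left out: Star ranged from -0.56 to 0.22 (above 0 without R89), Zp3 from -0.33 to 0.56 (below 0 without R124, and -0.03 without R124 and R38) and Gdf9 from -0.19 to 0.69 (below 0 without R124). With 1 library left out, the medians of 13 of 40 lists took both signs; they were neutrophils, lipid-laden macrophages, steroidogenic enzymes, cholesterol, granulosa, oocytes, primordial follicles, smooth muscle, proliferation, immediate-early, clock, nuclear oxidative phosphorylation and adipocytes. Of 680 list medians, 46 moved by more than the pooled SD of the list level between libraries. No alternative scaling moved the median of all genes by more than 0.05. No paired analysis was possible because the groups share no replicate number. Depth limits the low genes, as in Gm49592 with its at most 4 reads.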

Other observations

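Cholesterol genes and luteal receptors varied widely among the DSS libraries. The mean level of the 25 tested genes of cholesterol synthesis and uptake, relative to the mid-point of the groups in log2(FPKM + 1), was 0.56 in R29, -0.55 in R38, 0.43 in R78 and -0.48 in R89, against -0.38, 0.29 and 0.12 in control R123, R124 and R126. Luteal receptors followed a like order. Lhcgr, the luteinizing hormone receptor, measured 144, 23.9, 133 and 61.9 FPKM in the DSS libraries and 36.5, 81.2 and 105 in control. The lipoprotein receptor Scarb1 measured 204, 89.3, 192 and 77.5 in DSS and 68.6, 142 and 145 in control. The prolactin receptor Prlr measured 44.1, 15.02, 50.4 and 19.4 in DSS and 25.2, 46.6 and 45.4 in control. In all 3 genes R29 and R78 stood above R38 and R89, and the groups overlapped. The labels give no cycle stage for these libraries.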
